A study of Mus musculus with 4 samples.

Results

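The signalling adapter genes *Fcer1g*, *Tyrobp*, *Cd247* and *Hcst*, together with *Fcer1a*, were examined across immune cell clusters of mouse liver and lung. These 5 genes were chosen by name, with their listings in the deposited marker tables already known, so the values that selected them are given as a description and were not tested. Of the 5 genes, 3 were present among the 1679 genes of a table of cell types and 2 among the 2629 genes of a table of group 2 innate lymphoid cell (ILC2) subclusters. Both tables together held 3488 genes. *Cd247* and *Hcst* were present in neither table.

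Cells came from wild-type (wt) BALB/c mice, 8 weeks of age, injected intraperitoneally once a day over 5 days, either with PBS or with the recombinant cytokine rIL-33 at 0.5 µg. Liver and lung were taken from both treatments, and each of the resulting 4 groups was 1 droplet-based single-cell RNA sequencing library of transcript 3′ ends. Sorting kept CD127+Thy1+ST2+ cells and removed cells that carried CD3e, Ly6G, Ly6c, CD11b, CD45R, TER119 or TCRb, and the antibodies named for this step included neither one against FcεRI nor one against an NK cell receptor. Each library came from tissue pooled from several mice, so differences between animals cannot be seen. The tables pooled all 4 libraries and held no value per library. Treatment and organ were therefore not compared, no value has a replicate, and the tables give neither the depth nor the number of cells behind a value.

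Signalling adapters are small membrane proteins that pair with receptors which have no signalling motif of their own. FcRγ (*Fcer1g*), DAP12 (*Tyrobp*) and CD3ζ (*Cd247*) carry immunoreceptor tyrosine-based activation motifs (ITAMs), which recruit the kinases Syk and Zap70 once they are phosphorylated. DAP10 (*Hcst*) carries a different motif that recruits phosphoinositide 3-kinase. FcRγ serves Fc receptors and the natural cytotoxicity receptor NKp46, DAP12 serves activating NK cell and myeloid receptors, CD3ζ is part of the T cell receptor complex, and *Fcer1a* encodes the IgE-binding chain of the high-affinity IgE receptor FcεRI, which signals through FcRγ on basophils and mast cells. ILC2s lack antigen receptors and respond to cytokines such as IL-33.

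All 5 genes are protein-coding genes. In the mouse build GRCm38 (mm10), *Fcer1g* lies at chr1:171229572-171234365 on the minus strand, and *Fcer1a* lies on the same chromosome and strand at chr1:173221284-173227214. *Cd247* lies at chr1:165788681-165877277 on the plus strand and overlaps 6 other annotated genes. *Tyrobp* (chr7:30413760-30417585, plus strand) and *Hcst* (chr7:30417712-30419854, minus strand) point towards each other, with 126 bases between their 3′ ends.

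The bases upstream of the start sites are shown for *Fcer1g* and *Fcer1a*, because these genes encode chains of 1 receptor and were listed together for Basophil cells only. The sequences are from RefSeq (GRCm38.p6), which gave a window for 4 of the 5 genes, and each is the 250 bases before the start, 5′ to 3′ on the gene's strand. Capitals mark every match, on either strand, to a GATA motif (AGATAA, its variant AGATAG, and likewise TGATAA with its variant TGATAG) or an ETS motif (AGGAAG with its variant CGGAAG).
Fcer1g (chr1:171234350-171234599, minus strand): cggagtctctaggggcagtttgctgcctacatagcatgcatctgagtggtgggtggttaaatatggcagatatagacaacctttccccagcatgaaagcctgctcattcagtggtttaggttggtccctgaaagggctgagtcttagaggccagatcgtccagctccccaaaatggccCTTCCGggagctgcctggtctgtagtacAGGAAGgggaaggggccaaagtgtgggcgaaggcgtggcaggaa
Fcer1a (chr1:173227230-173227479, minus strand): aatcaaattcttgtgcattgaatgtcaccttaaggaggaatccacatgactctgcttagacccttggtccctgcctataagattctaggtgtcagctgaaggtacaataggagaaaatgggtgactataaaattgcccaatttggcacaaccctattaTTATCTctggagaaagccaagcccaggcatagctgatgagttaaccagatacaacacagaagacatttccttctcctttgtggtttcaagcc
The *Fcer1a* window held 1 GATA match and 0 ETS matches, and the *Fcer1g* window held 0 GATA matches and 2 ETS matches. A GATA match was present in 26.5% of the 32851 upstream windows of this length and an ETS match in 39.2%, so such matches are common. The *Cd247* window held 0 GATA matches and 1 ETS match, and the *Hcst* window 0 GATA matches and 3 ETS matches. These matches describe the letters in the windows and do not show binding.

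In both tables a row, called a listing here, is 1 gene in 1 cluster whose average expression was higher in that cluster than in all other cells. Each listing carries 2 shares of gene-positive cells (expression value above 0), 1 for the cluster itself and 1 for the rest of the cells. The share was lower inside the cluster in 719 of the 4422 listings among cell types and in 1102 of the 3745 among ILC2 subclusters. Counts of listings include these. The study's methods describe a merged matrix with counts scaled per cell and log-transformed, and name no integration step. Whether the values behind the shares were such measured counts or values integrated across libraries was not stated. In the second case a value above 0 is not a detected transcript. Where a gene is said to be detected in a share of cells, only a value above 0 is meant. A missing listing does not give the level of a gene, since a gene that was lower, alike or too rare was left out. In every listing the larger of both shares was at least 25.2% among cell types and 25.0% among ILC2 subclusters.

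*Fcer1g* was listed for 5 of the 21 cell types, NK, Macrophage, Basophil, ILC1 and ILC1_ILC3 (names as deposited). *Tyrobp* was listed for the same 5 types and for MMP_LMPP, which is 6 types. *Fcer1a* was listed for Basophil alone. The 12 listings of the 3 genes thus covered 6 types, and the other 15 types, which included ILC2, ILC2_2, ILC3 and all 5 γδ T cell types, listed none of the 5 genes. Genes of this table were listed for a median of 2 types and a maximum of 10. Listings in at least 5 types were held by 279 genes (16.6%) and in at least 6 types by 167 genes (9.95%), whereas 634 genes (37.8%) were, like *Fcer1a*, listed for 1 type.

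**Figure D1:**
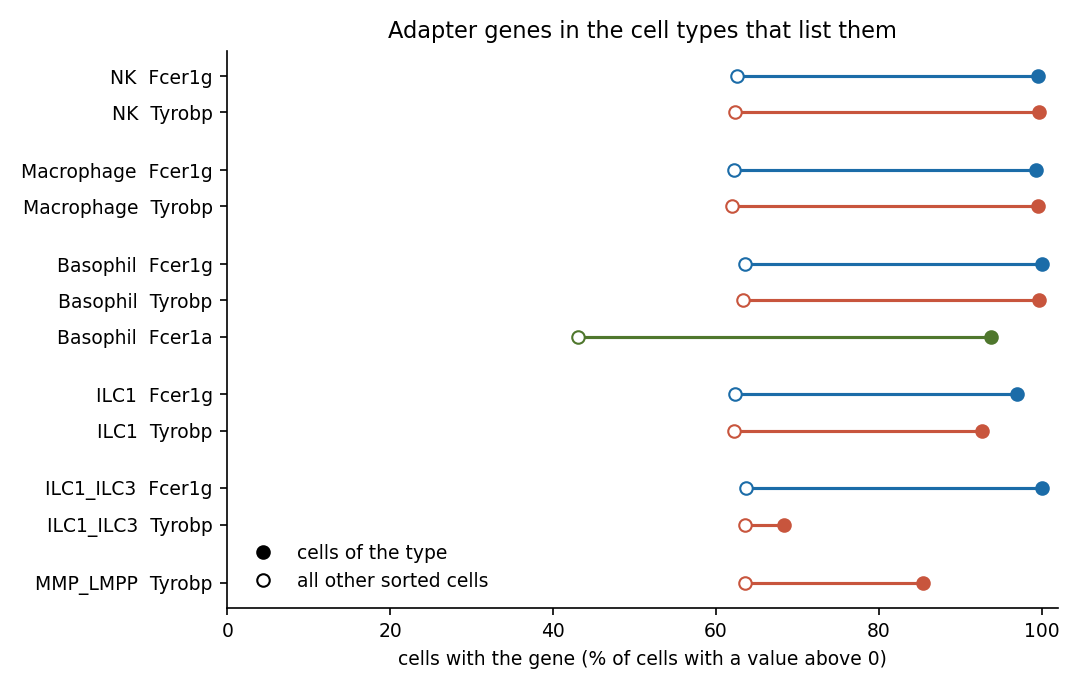
Gene-positive cells (%) for each listing of *Fcer1g* (blue), *Tyrobp* (red) and *Fcer1a* (green) among cell types; filled points are the cells of the type, open points all other sorted cells, 4 libraries pooled. Filled points of *Fcer1g* lie between 97.0% and 100.0%, whereas *Tyrobp* reaches down to 68.3% in ILC1_ILC3 and *Fcer1a* has the lowest share in other cells at 43.0%.

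Basophils listed all 3 genes. *Fcer1g* was detected in 100.0% of Basophil cells against 63.6% of all other sorted cells, and *Tyrobp* in 99.7% against 63.3%. *Fcer1a* was detected in 93.7% against 43.0%, a difference of 50.7 percentage points and the largest among the members. Basophil listed 275 of the 1679 genes (16.4%). Ordered by the difference in share of cells, *Fcer1a* took rank 69 among these 275 genes, and *Fcer1g* and *Tyrobp* shared rank 121. The label fitted its markers, because 6 of 6 basophil markers were listed, including the basophil protease gene *Mcpt8* (98.2% against 12.8%) and the transcription factor gene *Gata2* (99.1% against 6.2%). Over the 6 markers the share in other cells ran from 2.7% for *Prss34* to 28.1% for *Cpa3*, so that of *Fcer1a* was above all 6. The share of 43.0% counts values above 0 in a table whose underlying expression values were not stated, and how much of it is RNA made in those cells was not tested.

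In NK cells nearly all cells had both adapters. *Tyrobp* was detected in 99.7% of NK cells against 62.3% of other cells and *Fcer1g* in 99.5% against 62.6%. By the difference in share they took ranks 3 and 4, and by the ratio of both shares ranks 12 and 13, among the 197 genes listed for NK, which were 11.7% of all genes in the table. All 9 NK markers were listed as well, among them the cytotoxic granule gene *Gzma* (89.6% against 39.0%) and *Eomes* (86.7% against 64.0%).

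In ILC1 cells, *Fcer1g* was detected in 97.0% against 62.3% of other cells and *Tyrobp* in 92.7% against 62.2%. Among 145 genes they took ranks 1 and 5 by the difference and ranks 6 and 12 by the ratio. The 145 genes were 8.64% of the table. Of the 9 NK markers, 6 were listed for ILC1 and 5 of these had a higher share of cells inside, *Eomes*, *Gzma* and *Gzmb* not being listed there.

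Of the 5 types that list both adapters, ILC1_ILC3 had the widest gap between them. *Fcer1g* was detected in 100.0% of its cells against 63.7% of other cells (rank 21 of 225 by the difference, 49 by the ratio), whereas *Tyrobp* was detected in 68.3% against 63.6% (rank 210 by the difference, 207 by the ratio). The share of *Fcer1g* exceeded that of *Tyrobp* by 31.7 points inside ILC1_ILC3, against 4.3 points in ILC1, 0.3 in Basophil and -0.2 in both Macrophage and NK. The 225 genes listed for ILC1_ILC3 were 13.4% of the table, and its solved size was 0.592% of sorted cells, so these shares rest on a small part of the cells. Its listings included *Ncr1* (79.2% against 63.8%), which encodes NKp46, and the receptor gene *Kit* (80.3% against 59.2%).

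In Macrophage cells, *Tyrobp* was detected in 99.5% against 62.0% and *Fcer1g* in 99.3% against 62.2%. These shares were as high as in NK cells, but the ranks were 167 and 169 of 291 genes, and the 291 genes were 17.3% of the table. Of 9 macrophage markers, 4 were listed (*Lyz2*, *Cd68*, *Ctss* and *Cd14*), while *C1qa*, *C1qb*, *C1qc*, *Csf1r* and *Adgre1* were not, and the B cell genes *Ighm* (96.6% against 63.7%) and *Cd79b* (55.0% against 27.9%) were listed too. The label is therefore kept only as the deposited name.

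MMP_LMPP was the only type with *Tyrobp* and without *Fcer1g*. *Tyrobp* was detected in 85.4% of its cells against 63.6% of other cells, at rank 297 of 403 genes, which were 24.0% of the table. The progenitor genes *Cd34* (75.6% against 17.4%) and *Kit* (87.0% against 59.3%) were listed, *Flt3* and *Mpo* were not, and *Ighm*, *Cd79a* and *Cd79b* were. MMP_LMPP held 0.387% of sorted cells by its solved size.

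The high share in other cells was present in all listings of *Fcer1g* and *Tyrobp*. The size of each cluster was solved from the shares of genes listed for several clusters, and with these sizes each listing gives the share of all sorted cells with the gene. For *Fcer1g* this was 63.9%, with a range of 0.0866 points over its 5 listings. *Tyrobp* gave 63.7%, with a range of 0.0936 points over 6 listings, and the single listing of *Fcer1a* gave 43.5%. The types that list *Fcer1g* held 14.8% of sorted cells and 22.8% of *Fcer1g*-positive cells, and those that list *Tyrobp* held 15.1% of cells and 22.8% of *Tyrobp*-positive cells. In the remaining types together, *Fcer1g* was detected in 57.9% of cells (bound from rounding and fit 0.275 points) and *Tyrobp* in 57.9% (bound 0.288 points). Counted by values above 0, the types that did not list the adapter thus held the larger part of the positive cells. What such a value means in these types was not tested. *Cd3e*, whose protein the sort selected against, was above 0 in 83.1% of sorted cells outside CD4. The 63.9% and 63.7% also exceeded upper limits drawn from the ILC2 subclusters, given below. In the listing types, positive cells were 92.7% or more, apart from *Tyrobp* in ILC1_ILC3 and MMP_LMPP.

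Receptors that pair with FcRγ were listed only for types that list *Fcer1g*. Of 7 such receptor genes, 4 were listed, in 8 listings, and all 8 were in the 5 types that list *Fcer1g*, where 1133 of the 4422 listings of all genes (25.6%) lay. In Basophil cells, *Ms4a2*, the β chain of FcεRI, was detected in 98.2% against 4.4%. *Clec4e*, the receptor Mincle, was detected in 82.4% of Basophil cells against 13.5%, and *Fcgr3*, a low-affinity IgG receptor, in 91.9% against 38.7%. *Fcgr3* was listed for Macrophage (98.3% against 36.4%) and for NK (50.4% against 38.8%). *Ncr1* was listed for NK (99.3% against 62.5%), ILC1 (95.1% against 62.3%) and ILC1_ILC3. Each type with *Fcer1g* thus listed at least 1 receptor partner, an Fc receptor chain in Basophil and Macrophage and NKp46 in ILC1 and ILC1_ILC3, while NK listed both kinds. The lists were written with these results known, and the markers that named the clusters overlap with them, so the counts are not independent support.

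Receptors that pair with DAP12 were listed both with and without *Tyrobp*. Of 11 such genes, 2 were listed, *Klrk1* and *Klrc2*, which encode the activating NK cell receptors NKG2D and NKG2C, and 5 of their 11 listings (45.5%) were in types that list *Tyrobp*, against 1536 of 4422 (34.7%) for all genes. *Klrk1*, whose product also pairs with DAP10, was listed for 7 types, of which 3 list *Tyrobp* and 4 do not. It was detected in 97.2% of ILC1 cells against 69.7%, in 95.1% of NK cells against 70.2% and in 87.4% of ILC1_ILC3 cells against 71.0%. Without a *Tyrobp* listing it reached 87.5% in gdT_TypeIII_ITGAE (against 70.9%), 79.9% in gdT_TypeIII_CD163l1 (against 70.9%), 73.8% in gdT_TypeI (against 70.7%) and 66.5% in CD8_Effector (against 71.1%), where the share was lower than in other cells. *Klrc2* was listed for NK (87.1% against 65.8%) and ILC1 (81.6% against 65.8%), and also for gdT_TypeI (78.4% against 65.0%) and CD8_Effector (60.1% against 66.6%), which do not list *Tyrobp*. The myeloid partners *Trem1*, *Trem2*, *Trem3* and *Clec5a* were listed for no type, Macrophage included.

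Partners of CD3ζ were listed mainly for types without an adapter. All 12 were listed, in 67 listings, of which 6 (8.96%) were in a type that lists a member, against 34.7% of the listings of all genes, and those 6 were all of *Ncr1* and *Fcgr3*, whose products can also use FcRγ. A CD3 chain gene (*Cd3d*, *Cd3e* or *Cd3g*) was listed for 9 types, and 0 of these listed *Fcer1g*, *Tyrobp* or *Fcer1a*. Of all 21 types, 15 listed none of the members. *Cd247* itself was not listed for any of the 9 types, so the table gives no value for the ζ chain beside its partners. *Hcst* likewise has no value beside *Klrk1*.

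**Figure D2:**
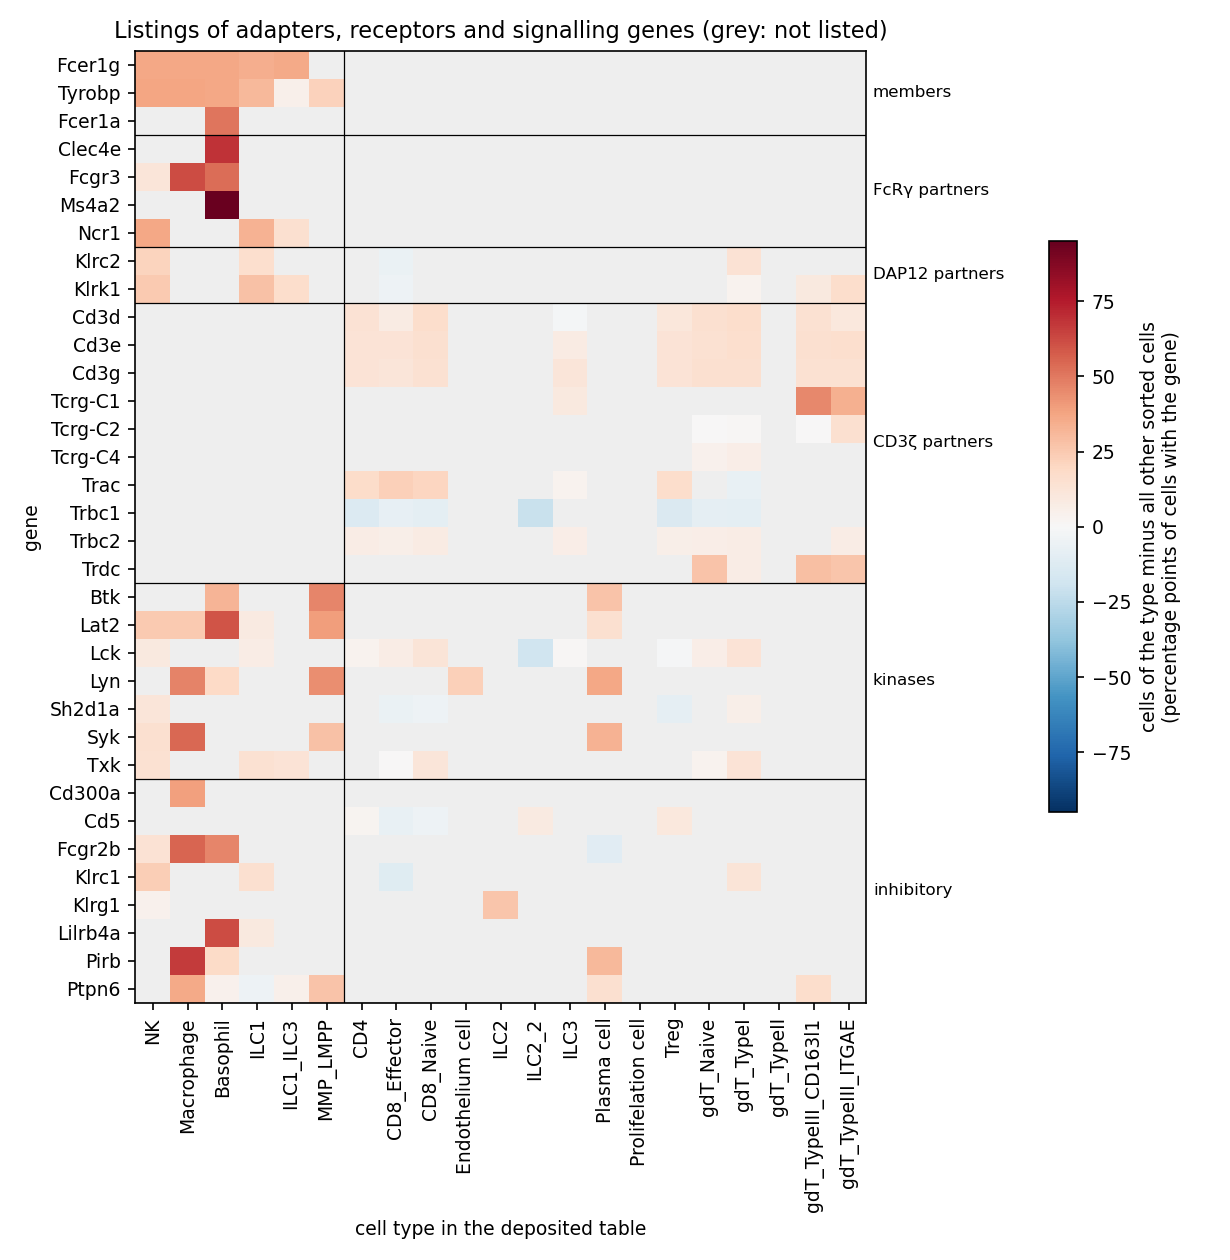
Difference in share of cells (percentage points, type minus all other sorted cells) for each listing of the adapters, their receptor partners, the kinases and the inhibitory genes among the 21 cell types; grey marks no listing, and the vertical line separates the 6 types that list an adapter. The 8 listings of FcRγ partners lie left of the line, and the CD3 chain genes lie right of it in 9 types.

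Downstream kinases and signalling genes were listed on both sides. Of 26 such genes, 7 were listed, in 40 listings, 15 (37.5%) in types with *Fcer1g* and 19 (47.5%) in types with *Tyrobp*, against 25.6% and 34.7% of the listings of all genes. *Syk*, the kinase recruited by ITAMs outside T cells, was listed for Macrophage (94.4% against 39.7%), MMP_LMPP (69.9% against 42.1%) and NK (56.5% against 41.6%), as well as for Plasma cell, but not for Basophil, ILC1 or ILC1_ILC3. In Basophil cells the scaffold gene *Lat2* (97.0% against 37.1%), *Btk* (58.8% against 26.6%) and *Lyn* (56.7% against 37.6%) were listed. *Lyn*, a Src family kinase that phosphorylates ITAMs, was also listed for Macrophage (82.8% against 35.6%) and MMP_LMPP (82.1% against 37.6%), and, without an adapter, for Plasma cell (74.1% against 37.6%) and Endothelium cell (60.2% against 37.6%). Plasma cell listed *Syk* (74.7% against 42.0%), *Btk* (54.1% against 26.8%) and *Lat2* (52.9% against 37.7%) as well. In MMP_LMPP the largest difference was that of *Btk* (73.2% against 26.7%). The Tec family kinase gene *Txk* was listed for NK (97.1% against 82.4%), ILC1 (97.0% against 82.3%) and ILC1_ILC3 (96.2% against 82.9%), and it was the only gene of this list in ILC1_ILC3. Without an adapter, *Txk* was listed for gdT_TypeI (94.5% against 81.5%), CD8_Naive (94.3% against 82.7%), gdT_Naive (85.9% against 82.8%) and CD8_Effector (83.3% against 83.0%). *Lck* and *Lat2* completed the ILC1 list, at 87.4% against 80.4% and 46.0% against 37.4%, and *Lat2* was listed for NK at 62.1% against 36.9%. *Lck* was also listed for NK and, without an adapter, for CD4, CD8_Effector, CD8_Naive, ILC2_2, ILC3, Treg, gdT_Naive and gdT_TypeI. Its largest differences were in gdT_TypeI (92.0% against 79.3%) and CD8_Naive (93.0% against 80.4%), and its share was lower than in other cells in ILC2_2 and Treg. *Zap70*, the T cell and NK cell kinase, had no listing.

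Inhibitory receptors and phosphatases, which counter ITAM signals, were listed for 8 of 12 genes in 28 listings, 15 (53.6%) in types with *Fcer1g* and 16 (57.1%) in types with *Tyrobp*, against the same 25.6% and 34.7% of all listings. Basophil listed the inhibitory receptor genes *Lilrb4a* (98.5% against 36.6%), *Fcgr2b* (89.6% against 43.0%) and *Pirb* (51.0% against 33.0%). Macrophage listed *Pirb* (96.2% against 30.1%), *Fcgr2b* (96.2% against 40.9%) and *Cd300a* (51.7% against 12.9%). *Ptpn6*, which encodes the phosphatase SHP-1, was listed for all 6 types with an adapter except NK, at 97.9% against 61.7% in Macrophage and 90.2% against 63.3% in MMP_LMPP, but at 67.8% against 63.3% in ILC1_ILC3, 67.5% against 63.3% in Basophil and a lower share than in other cells in ILC1 (59.1% against 63.6%). It was also listed for Plasma cell and gdT_TypeIII_CD163l1, which list no adapter. NK and ILC1 listed *Klrc1*, the inhibitory chain NKG2A, at 85.1% against 61.5% and 77.0% against 61.6%. Types without an adapter listed some of these genes too, *Klrc1* for gdT_TypeI (73.4% against 60.9%) and CD8_Effector (51.2% against 62.4%) and *Pirb* for Plasma cell (64.1% against 33.0%). *Fcgr2b* was listed beside the activating *Fcgr3* in Basophil, Macrophage and NK (56.6% against 43.0% for *Fcgr2b* in NK). It was also listed without *Fcgr3* for Plasma cell, at a lower share than in other cells (32.9% against 43.5%).

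The set of types that list *Tyrobp* was shared in full by 1 other gene, *Litaf* (Jaccard index 1.0, the shared clusters over all clusters of both genes, 21 types). *Atp1b1* (0.833) and *Ptms* (0.75) came next. For *Fcer1g* the nearest genes outside the members were *Litaf* (0.833), *Gas7* (0.8) and *Anxa1* (0.667, 1 of 10 genes at that index), and *Fcer1g* and *Tyrobp* had an index of 0.833 with each other. *Fcer1a* shared its single listing with 59 genes, of which *Acod1*, *Cd200r3* and *Cpa3* were closest to it in share of cells.

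In the ILC2 subcluster table the shares of adapter-positive cells were low. The study removed cells with non-ILC2 markers, *Fceri* among them, before it clustered the ILC2s again. Which gene that name means was not stated, and how far this selection set the low shares of the adapters was not tested. *Fcer1g* and *Tyrobp* were each listed for 1 of the 10 subclusters, subcluster 7, and *Fcer1a*, *Cd247* and *Hcst* for none. *Fcer1g* was detected in 32.0% of subcluster 7 against 5.2% of all other ILC2s, a ratio of 6.15. *Tyrobp* was detected in 26.5% against 3.2%, a ratio of 8.28. Subcluster 7 listed 270 of the 2629 genes (10.3%), with a median ratio of 1.70, and by ratio *Tyrobp* took rank 3 and *Fcer1g* rank 5. By the difference in share, 23.3 points for *Tyrobp* and 26.8 for *Fcer1g*, the ranks were 133 and 85, beside a median of 23.1 points over the 270 listings. The high ratios of the adapters thus came with their low share in other ILC2s, and 23 of the 270 listings had a share below 10% there. A listing in 1 subcluster is usual in this table, being held by 1861 genes (70.8%).

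**Figure D3:**
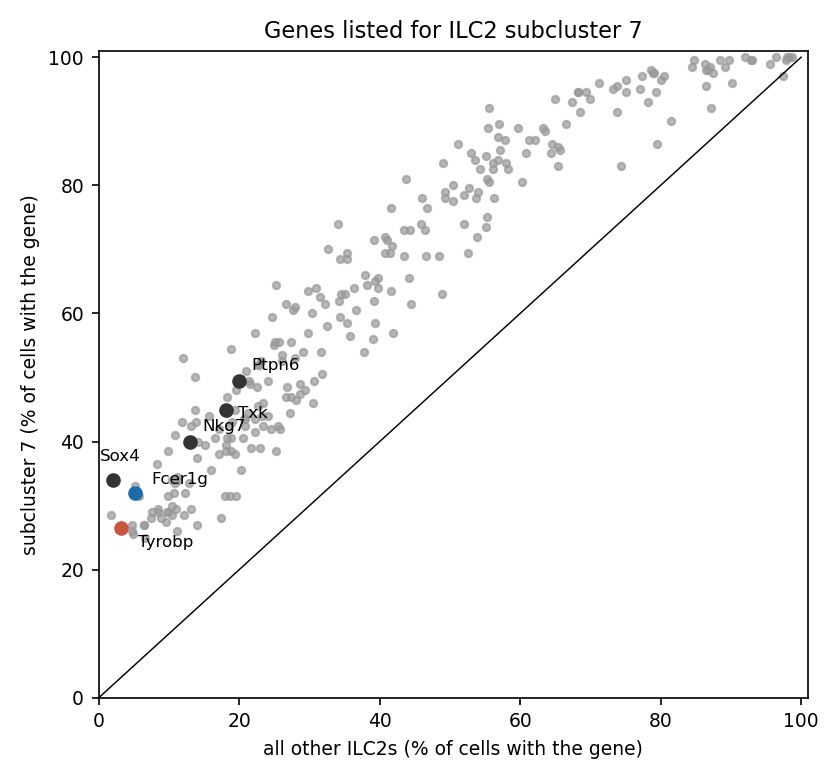
Gene-positive cells (%) inside ILC2 subcluster 7 (vertical) against all other ILC2s (horizontal) for its 270 listings; *Fcer1g* is blue, *Tyrobp* red, some other named genes black, and the line marks equal shares. Both adapters sit at the left edge, with *Fcer1g* at 32.0% against 5.2% and *Tyrobp* at 26.5% against 3.2%.

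Subcluster 7 was small, with a solved size of 1.42% of ILC2s. It held 8.15% of the *Fcer1g*-positive and 10.7% of the *Tyrobp*-positive ILC2s, and over all ILC2s the shares were 5.58% and 3.53%. Most positive ILC2s therefore lay outside subcluster 7, spread in a way the table does not give. If all of them lay in 1 other subcluster, *Tyrobp* would be detected in at most 11.5% of subcluster 0, 15.7% of subcluster 1, 17.2% of subcluster 2 and 21.1% of subcluster 3, each under the 25.0% that any listing reached. For *Fcer1g* this limit was 18.7% in subcluster 0, and between 25.6% and 55.5% in subclusters 1 to 4. In the small subclusters 5, 6, 8 and 9 the limits were 81.4% or more for both genes, so the share there could not be bounded in a useful way.

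**Figure D4:**
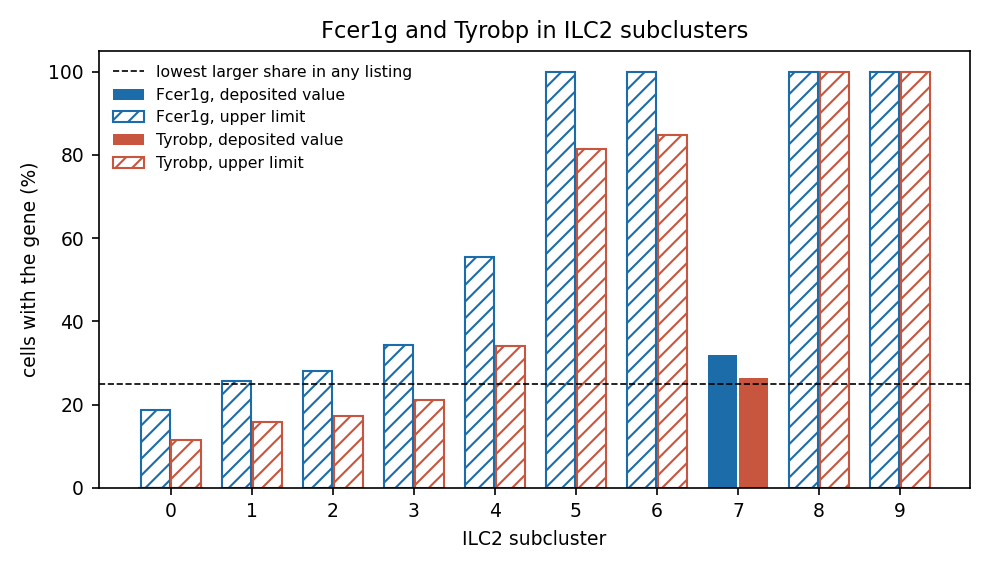
Share of cells with *Fcer1g* (blue) or *Tyrobp* (red) in each ILC2 subcluster (%); filled bars are the deposited values in subcluster 7, hatched bars the highest share the other subclusters could have if all remaining positive cells lay there, and the dashed line is 25.0%. *Tyrobp* limits stay under the line in subclusters 0 to 3, and those of *Fcer1g* in subcluster 0.

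The genes around the adapters in subcluster 7 were of mixed kinds. By ratio, *Sox4* (34.0% against 2.0%) and *Cxxc5* (28.5% against 1.7%) preceded *Tyrobp*, and *Zbtb16*, which encodes the factor PLZF of innate lymphoid precursors, lay between *Tyrobp* and *Fcer1g* (33.0% against 5.2%). These 3 genes were named after their values were seen. Of the markers chosen for the types that list the adapters, 0 of 6 for basophils, 0 of 9 for macrophages, 0 of 4 for progenitors and 1 of 9 for NK cells (*Nkg7*, 40.0% against 13.0%) were listed. Other genes of these types were present. Leaving out the adapters, 66 of the 268 genes of subcluster 7 (24.6%) were also listed for MMP_LMPP, 51 (19.0%) for Basophil, 38 (14.2%) for Macrophage and 37 (13.8%) for NK, against 10.7%, 4.95%, 3.69% and 3.92% of all 2627 genes of the ILC2 table. The share was above that of all genes for each of the 21 types, those without an adapter included, and reached 18.3% against 13.6% for the proliferating type. Among the 30 genes with a ratio of at least 3, 10 (33.3%) were listed for MMP_LMPP and 10 (33.3%) for Macrophage, against 10.7% and 3.69% of all genes. Next came Endothelium cell, which lists no adapter, with 6 (20.0%, against 4.11%), and then Basophil, NK, ILC1_ILC3 and gdT_Naive with 5 (16.7%) each. A ratio of at least 3 requires a low share in other ILC2s, and all 2627 genes were not filtered in that way. The percentages of the 30 genes and of all genes are therefore not a like comparison, and no conclusion is drawn from them. Whether cells of other types are part of the adapter shares of subcluster 7 was not tested. Of 9 ILC2 markers, 5 were listed, beside 10.3% of all genes, among them the cytokine genes *Il13* (60.5% against 36.6%), *Il5* (46.5% against 28.1%) and *Areg* (62.0% against 39.2%). *Gata3*, *Il1rl1*, *Klrg1* and *Il17rb* were not listed for subcluster 7. The cytokine genes were also listed elsewhere, such as *Il13* for subclusters 4 (62.1% against 34.4%) and 8 (69.7% against 36.8%), *Areg* for subcluster 8 and *Il5* for subcluster 9. Subcluster 3 listed 6 of the 9 markers. Genes with a listing in subcluster 7 alone numbered 99 beside each adapter, and the nearest in share of cells were *Plcg2*, *Atp8b4* and *Gstm1* for *Fcer1g* and *Cd93*, *Clec2i* and *Ly6e* for *Tyrobp*.

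None of the receptor partners of FcRγ, DAP12 or DAP10 was listed for an ILC2 subcluster, 0 of 7, 0 of 11 and 0 of 1 genes. Subcluster 7 listed 3 CD3ζ partners, the T cell receptor constant region genes *Tcrg-C4* (69.5% against 52.6%), *Tcrg-C1* (42.0% against 25.8%) and *Trbc1* (86.5% against 79.5%). Its listed kinase and signalling genes were *Txk* (45.0% against 18.1%) and *Plcg2* (32.0% against 12.3%), a phospholipase downstream of Syk, and its inhibitory genes were *Ptpn6* (49.5% against 20.0%) and *Lilrb4a* (31.5% against 18.0%). Over all 10 subclusters, 7 of 12 CD3ζ partners had 15 listings, 12 of 26 kinase and signalling genes had 17, and 6 of 12 inhibitory genes had 12. Subcluster 7 held 7.21% of the listings of all genes, against 3 of 15 (20.0%) for CD3ζ partners, 2 of 17 (11.8%) for kinase and signalling genes and 2 of 12 (16.7%) for inhibitory genes. Subclusters 5 and 6, which list no adapter, had 4 listings of CD3ζ partners each, of which 3 in subcluster 5 and 4 in subcluster 6 had a higher share inside. Several of these genes were also listed for subclusters without an adapter, such as *Tcrg-C4* for subcluster 8 (77.5% against 52.7%) and *Tcrg-C1* for subcluster 6 (40.1% against 25.5%). Others were *Txk* for subclusters 4 (42.4% against 16.1%) and 5 (42.8% against 17.5%), *Ptpn6* for subcluster 4 (45.2% against 17.9%) and *Lilrb4a* for subcluster 8 (38.2% against 18.1%).

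The shares of the 2 tables were not on 1 scale. The types ILC2 and ILC2_2 held 45.0% of sorted cells by their solved sizes. If 5.58% of these had *Fcer1g*, as among the ILC2s of the other table, and every other sorted cell were positive, 57.5% of sorted cells would be positive, below the 63.9% that the cell type table gave. For *Tyrobp* the corresponding values were 56.6% and 63.7%. The cause was not tested, and shares were compared only within a table.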

How the data were processed

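Processed marker tables of 4 single-cell libraries, 1 per group, were analysed. Per the study's methods and the submitters' processing notes, reads were aligned with Cell Ranger (version not given in the sources used here) to mm10, cells with few genes were removed, and cells were clustered in Seurat (v3.1.2 and v4.0.4). Doublets were removed by flow cytometry, and no doublet caller was described. The authors deposited, for each gene and cluster, the fraction of gene-positive cells in the cluster and the fraction in the remaining cells, rounded to 3 decimals and with all libraries pooled. The Seurat assay was not stated. The deposited fold changes, p-values and adjusted p-values are the authors' own comparisons and were not used. The tables held 0 further columns of values per sample.

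Fractions were written as percentages. Cluster sizes came from a least-squares fit to genes with 2 or more listings, using the identity that the share in other cells plus the size times the difference in share equals the share in all cells. Bounds combined rounding and 2 standard errors of the fit. The fit was tested on simulated data. Python 3.11.15, numpy 2.4.6, pandas 2.3.3 and matplotlib 3.10.9 were used. Coordinates are from the GENCODE annotation of GRCm38. No test was run, because cells are not replicates and each group was 1 library.

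The members and the 16 gene lists were chosen with earlier results of these data known. Genes named were the members, listed receptor partners, kinases and inhibitory genes in clusters that list a member (at most 3 with values per list and cluster), the 3 genes most like each member by the Jaccard index, and cell type markers. Exceptions, given after their values were seen, were *Syk* in MMP_LMPP, *Ptpn6* in Macrophage, listings of the lists in clusters without a member, the genes shared between subcluster 7 and cell types, and 3 further genes of subcluster 7. Alternatives required a share at least 10 points above other cells, a higher share inside, or at least 50% of cells inside, and other fits of the sizes.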

Additional observations from a re-analysis of the deposited data

How the results depend on the processing

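Every listing counted in the main results. Where a listing also had to show a share of cells at least 10 points above that in other cells, listings of receptor partners, kinases and inhibitory genes fell from 148 to 91 among cell types and from 44 to 28 among ILC2 subclusters. The same rule left 11 of the 12 listings of the adapters among cell types and 5 of the 6 types of *Tyrobp*, without *Tyrobp* in ILC1_ILC3. Where at least 50% of cells inside had to have the gene, those among ILC2 subclusters fell to 18, and listings of the adapters there fell from 2 to 0, because *Fcer1g* and *Tyrobp* were below that share in subcluster 7. Where only a higher share inside was required, listings of receptor partners, kinases and inhibitory genes were 127 among cell types and 35 among ILC2 subclusters. These changes follow from the stricter rules themselves. Of the solved sizes and shares, 51 of 51 values under other fits moved by at most 0.00489 percentage points. No paired analysis was possible because the tables carry no value per library, and a group was 1 library. The tables hold no depth or cell numbers and each group has no replicate. The shares are given without a counting error, and those of small clusters are the least certain.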
